A study of Mus musculus with 6 samples.

Results

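The cytochrome P450 genes were described in 6 cell lines grown from mouse liver tumors. They were chosen by symbol, as every gene of the expression table whose name is Cyp followed by a family number, a subfamily letter and a gene number, which gave 79 of the 20856 genes with values. A further 9 rows with a name that starts with Cyp did not have this form, among them *Cyp51* and several pseudogenes. All 6 lines came from C57BL/6 mice in which hydrodynamic tail vein injection, a rapid injection of plasmids in a large volume that reaches hepatocytes, had delivered a transposon carrying *Myc* together with a plasmid encoding Cas9 and a guide RNA. In 3 lines the guide targeted *Trp53* (*Myc*; sg*Trp53*, named here sg*Trp53* 1, 2 and 3) and in 3 it targeted *Kmt2c*, which encodes the histone methyltransferase MLL3 (*Myc*; sg*Kmt2c*, named here sg*Kmt2c* 1, 2 and 3). Myc overexpression was thus common to all lines, no line had both target genes untouched by a guide, and no normal liver, primary hepatocyte or uncultured tumor was part of the comparison. The tumor cells had been grown on collagen-coated plates and passaged until fibroblasts were no longer visible. The study describes its lines as coming from different mice, but the labels name sg*Kmt2c* 2 and 3 as 2A and 2T1, and whether they share a mouse is not given there.

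Cytochrome P450 enzymes are heme proteins that insert oxygen into their substrates with electrons passed on by a reductase. Most of them sit in the endoplasmic reticulum and draw on P450 oxidoreductase (Por), whereas a few work in mitochondria with ferredoxin (Fdx1) and ferredoxin reductase (Fdxr). The liver is the main organ of drug oxidation by families 1 to 3 and of bile acid synthesis by Cyp7a1, Cyp8b1, Cyp27a1, Cyp7b1 and Cyp39a1, and the mature hepatocyte is known for very high transcription of many of these genes. Other members hydroxylate fatty acids and eicosanoids (family 4 and Cyp2u1), make steroid hormones (Cyp11a1, Cyp17a1, Cyp21a1), or activate and degrade vitamin D and retinoic acid (Cyp2r1, Cyp27b1, Cyp24a1 and family 26).

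Levels are RPKM, the reads on a gene per kilobase of transcript and scaled to the total of reads counted on genes. Comparisons between genes, and sums over genes, depend on the 1 transcript length listed for each gene. The libraries held 3680068 to 6878625 counted reads, and 1 read on a 2 kb transcript was worth 0.0726 to 0.136 RPKM. Read numbers given below were recovered from the RPKM and the listed transcript length. *Trp53* stood at 17.2 to 19.4 RPKM across sg*Trp53* 1 to 3 and at 92.2 to 124 RPKM across sg*Kmt2c* 1 to 3, while *Kmt2c*, at 18.4 to 24.2 RPKM and 9.51 to 24.97 RPKM, overlapped. A level summed over a whole gene does not show small edits made by Cas9. The line sg*Kmt2c* 1 stood apart from the others. The summed level of 16 hepatocyte markers was 5689 RPKM there. It was 35.1 to 81.0 RPKM across sg*Trp53* 1 to 3, 6.46 RPKM in sg*Kmt2c* 2 and 345 RPKM in sg*Kmt2c* 3. Most of the sum in sg*Kmt2c* 1 came from *Apob* (4385 RPKM, 23099 reads) and *Hnf4a* (1186 RPKM, 2409 reads). Both levels rest on shorter listed lengths than that of *Trf*, where 799 reads gave 72.5 RPKM in that line. Marker lengths were not checked against other transcripts, and a length that is too short raises such a sum. Of the 16 markers, 10 reached 1 RPKM in sg*Kmt2c* 1 and 2 to 8 in the other lines, *Alb* lay between 0.644 and 4.36 RPKM, and *G6pc* had 0 reads throughout. The summed level of 12 fibroblast and stellate cell markers ran from 18.8 to 996 RPKM across sg*Trp53* 1 to 3 and from 0.282 to 157 RPKM across sg*Kmt2c* 1 to 3, with *Lrat* at 0 in all 6. The 11 hepatoblast and biliary markers summed to 150 to 2189 RPKM and 396 to 7215 RPKM, the 8 immune markers to 20.2 to 50.3 RPKM and 5.35 to 14.4 RPKM with *Cd3e* and *Cd79a* at 0, and 0 of 7 endothelial markers reached 1 RPKM. In RNA from whole cultures, fewer cells of a type and less RNA per cell cannot be told apart.

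Only 4 of the 79 P450 genes reached 1 RPKM in all 6 lines, which is 5.06% of them, against 46.9% of all 20856 genes. These were *Cyp20a1*, *Cyp39a1*, *Cyp4f13* and *Cyp4f16*. A further 7 genes reached that level in 3 to 5 lines and 8 in 1 or 2 lines. The other 60 of the 79 stayed under 1 RPKM in every line, against 7455 of all 20856 genes. Of these 60 P450 genes, 24 (30.4% of the 79, against 8.02% of all genes) had 0 reads in all 6 libraries. At this depth a count of 0 in a library allows up to 3 reads, or 0.218 to 0.407 RPKM on a 2 kb transcript, so these genes were not detected rather than shown to be silent.

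**Figure D1:**
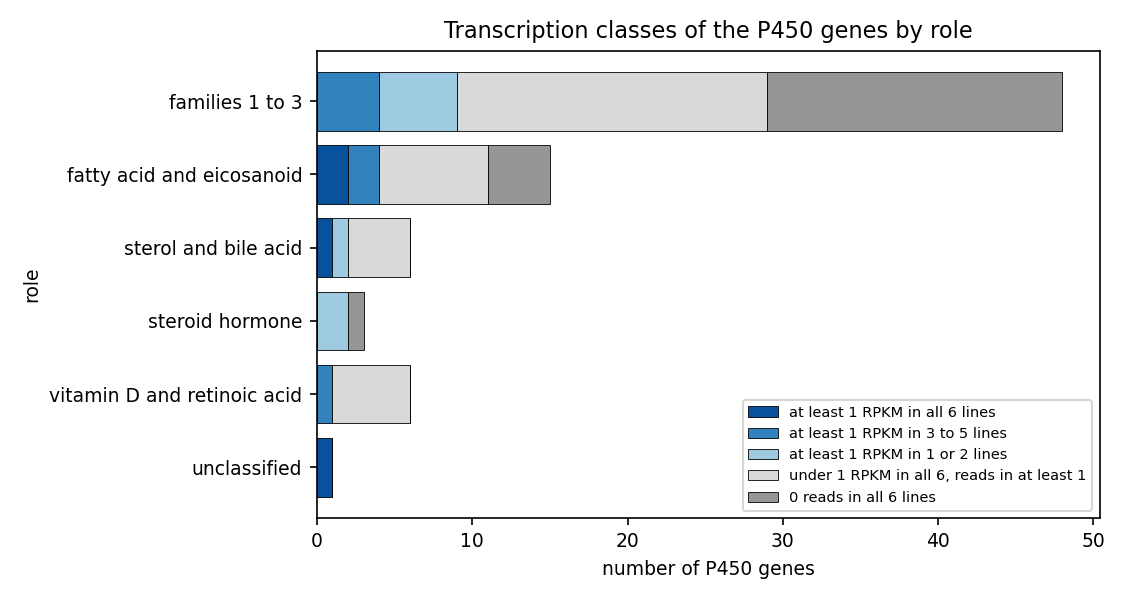
Number of P450 genes (x axis) in each role (y axis), with bar segments for the number of lines in which a gene reached 1 RPKM. Of the 48 genes shown as families 1 to 3, which leave out *Cyp2r1* and *Cyp2u1*, 39 lay under 1 RPKM in all 6 lines, and the 4 genes found in every line belong to the fatty acid, sterol and unclassified groups.

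The drug-metabolizing families held 39 of the 60 genes under 1 RPKM, a share close to the 48 of all 79 P450 genes that they make up by role. By symbol families 1 to 3 have 50 genes, of which *Cyp2r1* and *Cyp2u1*, both under 1 RPKM, were counted with vitamin D and fatty acids by their role. Of the other 48 genes of families 1 to 3, 0 reached 1 RPKM in all 6 lines, 4 did so in 3 to 5 lines and 5 in 1 or 2 lines, while 20 had a few reads and 19 had 0. The genes that a textbook lists as products of the mature hepatocyte were among the low ones. *Cyp2e1*, which oxidizes ethanol and small solvents, had 2, 2 and 0 reads across sg*Trp53* 1 to 3 and 0, 0 and 1 read across sg*Kmt2c* 1 to 3. *Cyp3a11*, a main drug-oxidizing enzyme of mouse liver, had 1, 1 and 0 reads and 2, 0 and 0 reads, and *Cyp1a2*, a caffeine-oxidizing enzyme of the liver, had 0 in every library. The genotypes thus could not be compared for these 3 genes. The subfamily Cyp2c, with 15 genes on chromosome 19, had 2 genes over 1 RPKM in any line, 7 with a few reads and 6 with 0. Of the 8 Cyp2d genes on chromosome 15, 2 passed 1 RPKM in a line, and of the 7 Cyp3a genes on chromosome 5 only *Cyp3a13* did. Reads of such closely related genes can be lost or shifted in counting, so single members of these clusters are uncertain.

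Bile acid synthesis was represented mainly by its last-named member. *Cyp7a1*, the rate-limiting enzyme of the classic pathway, had 1 read in sg*Trp53* 1 and 0 in the other libraries. *Cyp8b1*, which sets the amount of cholic acid, had 1 read in sg*Kmt2c* 2 and 0 elsewhere, and *Cyp7b1*, the oxysterol hydroxylase of the alternative pathway, had 3 reads in sg*Trp53* 1 and 1 in sg*Kmt2c* 3. *Cyp27a1*, the mitochondrial enzyme that opens the alternative pathway, had 2, 4 and 22 reads across sg*Trp53* 1 to 3 and 0, 6 and 3 across sg*Kmt2c* 1 to 3, and passed 1 RPKM only in sg*Trp53* 3, at 1.69 RPKM. *Cyp39a1* (ENSMUSG00000023963), an oxysterol hydroxylase that acts on a side-chain hydroxylated cholesterol, was by contrast found in every line. Its level was 9.61, 5.11 and 5.37 RPKM across sg*Trp53* 1 to 3 and 19.3, 6.31 and 5.98 RPKM across sg*Kmt2c* 1 to 3. The highest line was sg*Kmt2c* 1, the next was sg*Trp53* 1, and the genotypes overlapped. The gene lies on chromosome 17 from 43667425 to 43751431 (GRCm38), where RefSeq also places the small RNA gene *Gm25783* and the long noncoding RNA *Gm41581*.

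*Cyp20a1* (ENSMUSG00000049439, chromosome 1 from 60343323 to 60388060), a conserved P450 with no settled substrate, was the steadiest member. It stood at 54.8, 56.0 and 73.6 RPKM across sg*Trp53* 1 to 3 and at 59.1, 72.3 and 57.8 RPKM across sg*Kmt2c* 1 to 3, from 241 to 495 reads a library. No line stood out and the genotypes overlapped (61.5 ± 10.5 and 63.1 ± 8.0 RPKM, mean ± SD, n = 3 each). Its spread between lines of a genotype on the log2 scale was at percentile 15.9 of the 11617 genes tested. It was the highest of the 79 genes in 3 of the 6 lines. It held 41.5%, 48.2% and 43.3% of their summed level in sg*Trp53* 1, sg*Trp53* 3 and sg*Kmt2c* 3. The levels depend on the length used by the authors. The table divides by 976 bases, whereas the longest GENCODE transcript has 2223. With that length *Cyp20a1* would lie at 24.0 to 32.3 RPKM, with a median over the 6 lines of 25.7 RPKM in place of 58.5 RPKM. It would be the highest of the 79 genes in sg*Trp53* 1 and sg*Kmt2c* 3 but not in sg*Trp53* 3, where *Cyp1b1* was at 42.1 RPKM. *Cyp51*, which is outside the 79, was at 35.5 RPKM in sg*Trp53* 1 and 62.7 RPKM in sg*Kmt2c* 3. It exceeded *Cyp20a1* in sg*Kmt2c* 3 with either length, and in sg*Trp53* 1 with the longer one.

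**Figure D2:**
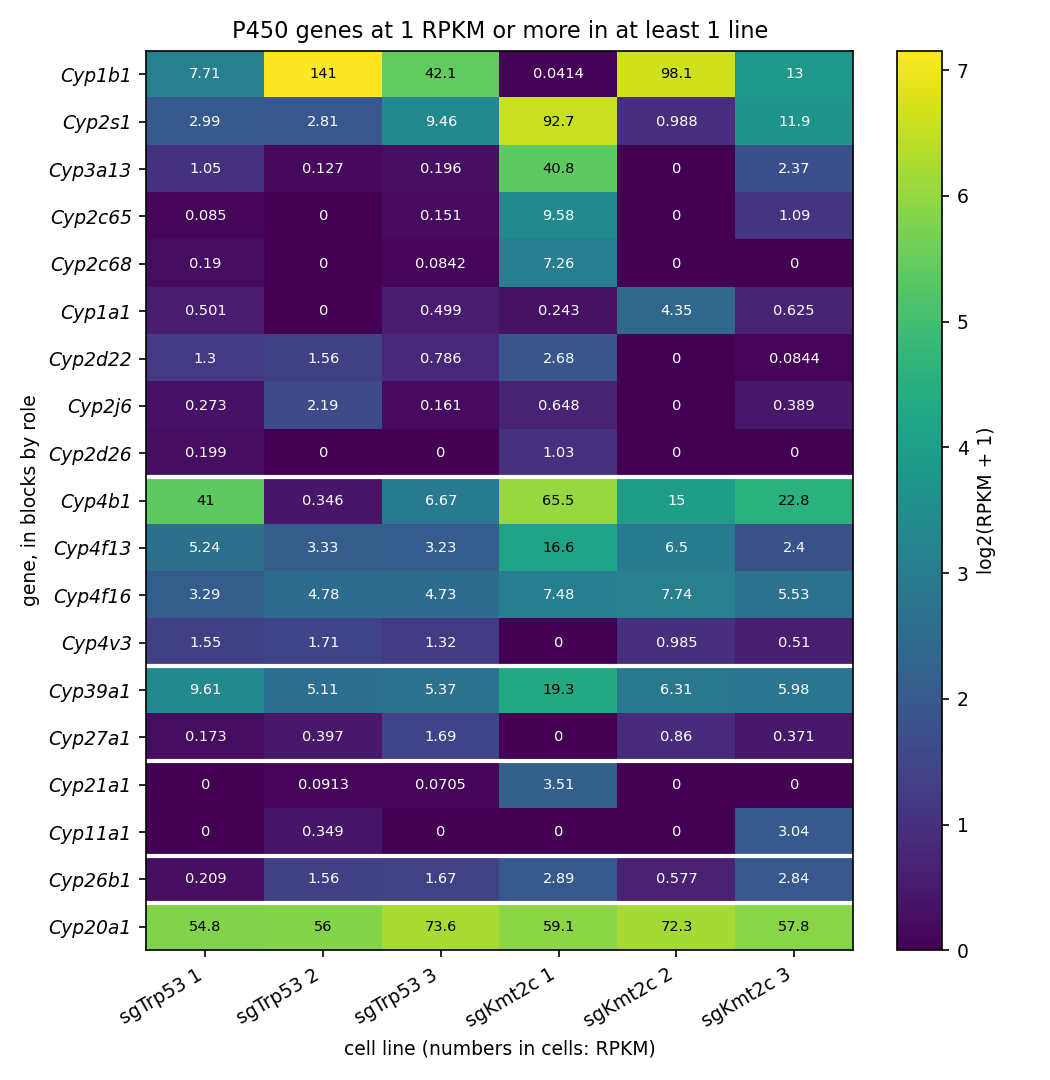
Levels of the 19 P450 genes that reached 1 RPKM in at least 1 line (rows, in blocks by role) in the 6 lines (columns). Color gives log2(RPKM + 1) and the number in each cell the RPKM, and *Cyp20a1* is the most even row, at 54.8 to 73.6 RPKM.

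Family 4, the fatty acid and eicosanoid hydroxylases, held the other 2 genes found in every line. *Cyp4f16* (ENSMUSG00000048440, chromosome 17 from 32536558 to 32551798) was at 3.29, 4.78 and 4.73 RPKM across sg*Trp53* 1 to 3 and at 7.48, 7.74 and 5.53 RPKM across sg*Kmt2c* 1 to 3. *Cyp4f13* (ENSMUSG00000024055, chromosome 17 from 32924688 to 32947402) was at 5.24, 3.33 and 3.23 RPKM and at 16.6, 6.503 and 2.40 RPKM. For *Cyp4f16* the lowest sg*Kmt2c* line exceeded the highest sg*Trp53* line, whereas for *Cyp4f13* the genotypes overlapped, with sg*Kmt2c* 1 highest and sg*Kmt2c* 3 lowest of the 6. *Cyp4v3* (ENSMUSG00000079057, chromosome 8 from 45269671 to 45333216), whose human counterpart gene is mutated in Bietti crystalline dystrophy, was lower in level, with 1.55, 1.71 and 1.32 RPKM across sg*Trp53* 1 to 3 and 0, 0.985 and 0.510 RPKM across sg*Kmt2c* 1 to 3. These are 25 or 26 reads in each sg*Trp53* library and 0, 10 and 6 in the sg*Kmt2c* libraries. The genotypes thus did not overlap. RefSeq places *Klkb1* and *Gm30504* over the same stretch, and *Klkb1* had 0 reads in all 6 libraries. *Cyp4b1* (ENSMUSG00000028713, chromosome 4 from 115624725 to 115647723), known from the lung as an enzyme that activates protoxins, varied most in the family, at 41.0, 0.346 and 6.67 RPKM across sg*Trp53* 1 to 3 and 65.5, 15.0 and 22.8 RPKM across sg*Kmt2c* 1 to 3. It was lowest in sg*Trp53* 2, with a single read, and the genotypes overlapped. The listed length of 544 bases is short for this gene, and with the longest transcript (1913 bases) its median would be 5.37 RPKM in place of 18.9 RPKM. The 4 Cyp4a genes, which hydroxylate long-chain fatty acids under Ppara, all stayed under 1 RPKM.

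*Cyp1b1* (ENSMUSG00000024087, chromosome 17 from 79706953 to 79715041), which oxidizes estrogens and polycyclic hydrocarbons and is known from mesenchymal and tumor cells rather than from hepatocytes, had the widest range. It stood at 7.71, 141 and 42.1 RPKM across sg*Trp53* 1 to 3 and at 0.0414, 98.1 and 13.0 RPKM across sg*Kmt2c* 1 to 3, that is 241, 3859 and 1488 reads and 1, 1855 and 286 reads. The highest lines were replicate 2 of both genotypes, and sg*Kmt2c* 1 had almost none. It was the top P450 gene in these 2 highest lines, with 63.1% of the summed P450 level in sg*Trp53* 2 and 45.6% in sg*Kmt2c* 2. Within the sg*Trp53* genotype, line 2 was 18.4 times line 1. Its spread between lines of a genotype was at percentile 99.7 of the genes tested.

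The fibroblast and stellate cell markers, taken as a sum, stood in nearly the same order over the lines. Their summed level was 18.8, 996 and 293 RPKM across sg*Trp53* 1 to 3 and 0.282, 157 and 122 RPKM across sg*Kmt2c* 1 to 3, with 4, 5 and 8 and with 0, 5 and 5 of the 12 at 1 RPKM or more. *Cyp1b1* was lowest in the line in which all 12 lay under 1 RPKM, and the ordering differed from that of the sum only in that sg*Trp53* 3 and sg*Kmt2c* 2 changed places. *Col3a1* made up most of the sum in sg*Trp53* 2 (814 RPKM), sg*Kmt2c* 2 (115 RPKM) and sg*Kmt2c* 3 (92.9 RPKM). In sg*Trp53* 3 it was at 22.4 RPKM. Of the 11 markers with reads, 5 were highest in sg*Trp53* 3 and 4 in sg*Trp53* 2, so single markers did not all take the order of the sum. *Dcn*, a defining fibroblast gene, had 0 reads in sg*Kmt2c* 2, where *Cyp1b1* was at 98.1 RPKM. This match was seen after the values were known, and the part of these cells or genes in the *Cyp1b1* level was not tested.

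*Cyp1a1* (ENSMUSG00000032315, chromosome 9 from 57697613 to 57703822), the classic target of the aryl hydrocarbon receptor (Ahr), was low. It had 8, 0 and 9 reads across sg*Trp53* 1 to 3 and 3, 42 and 7 across sg*Kmt2c* 1 to 3, and passed 1 RPKM only in sg*Kmt2c* 2, at 4.35 RPKM, which was 6.96 times the next line. *Ahr* itself ran at 20.6, 30.2 and 20.9 RPKM and at 24.6, 36.6 and 15.0 RPKM, and its repressor *Ahrr* at 0.103, 0.593 and 0.580 RPKM and at 0, 1.71 and 0.197 RPKM. *Cyp1a1*, *Ahr* and *Ahrr* were thus all highest in sg*Kmt2c* 2, the line second in *Cyp1b1*. *Tiparp*, another target of the receptor, was lowest in that line, at 6.54 RPKM against 8.32 to 14.6 RPKM in the other lines.

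The promoters of *Cyp1b1*, *Cyp1a1* and *Cyp2s1* are shown because all 3 genes are known targets of Ahr, whose response element has the core GCGTG. Each is the 300 bases from 250 before to 50 after the RefSeq start in GRCm38.p6, written 5′ to 3′ on the strand of the gene, at chr17:79715012-79715311 (minus strand), chr9:57697363-57697662 (plus strand) and chr7:25816476-25816775 (minus strand). Capitals mark GCGTG on either strand, which reads CACGC on the other.
Cyp1b1: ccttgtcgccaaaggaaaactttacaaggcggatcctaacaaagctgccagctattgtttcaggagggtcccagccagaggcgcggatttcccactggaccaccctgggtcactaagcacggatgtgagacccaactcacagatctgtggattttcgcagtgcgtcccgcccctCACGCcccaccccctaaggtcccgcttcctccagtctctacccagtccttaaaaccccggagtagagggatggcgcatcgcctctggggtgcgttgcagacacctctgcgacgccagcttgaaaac
Cyp1a1: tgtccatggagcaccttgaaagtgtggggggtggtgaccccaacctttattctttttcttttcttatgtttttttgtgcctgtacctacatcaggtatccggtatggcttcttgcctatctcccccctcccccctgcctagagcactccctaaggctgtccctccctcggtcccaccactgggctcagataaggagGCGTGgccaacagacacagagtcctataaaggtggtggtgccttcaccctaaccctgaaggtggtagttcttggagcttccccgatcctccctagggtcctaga
Cyp2s1: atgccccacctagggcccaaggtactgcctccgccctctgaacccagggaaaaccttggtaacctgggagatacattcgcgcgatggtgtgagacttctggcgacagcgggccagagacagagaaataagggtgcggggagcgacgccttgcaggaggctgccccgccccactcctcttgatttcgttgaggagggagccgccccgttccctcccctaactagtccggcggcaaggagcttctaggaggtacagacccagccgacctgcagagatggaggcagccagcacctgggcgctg

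The window of *Cyp1b1* held the core once, starting 76 bases before the start site, that of *Cyp1a1* once, 54 bases before it, and that of *Cyp2s1* held none. Sequence outside these windows was not searched, and whether Ahr acts through the marked cores was not tested. The core includes a CpG and is common, since 32.4% of all 32851 promoters of this length carried it. Among the 62 P450 genes with a promoter in the RefSeq table, 11 (17.7%) had it in at least 1 promoter, namely 4 of 9 genes at 1 RPKM or more in 3 or more lines, 2 of 7 in 1 or 2 lines and 5 of 46 under 1 RPKM throughout. Counted in the same way, by gene, the core was in 50.03% of the 13295 genes of the table with a RefSeq promoter. Among these it was in 60.1% of the 7339 genes at 1 RPKM or more in all 6 lines. It was in 32.8% of the 3749 under 1 RPKM throughout.

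The line sg*Kmt2c* 1 carried the highest level of 11 of the 19 P450 genes that reached 1 RPKM anywhere. Of all 13401 genes at 1 RPKM or more in at least 1 line, 24.0% were highest in that line. The 11 were *Cyp21a1*, *Cyp26b1*, *Cyp2c65*, *Cyp2c68*, *Cyp2d22*, *Cyp2d26*, *Cyp2s1*, *Cyp39a1*, *Cyp3a13*, *Cyp4b1* and *Cyp4f13*. Without this line, 16 genes in place of 19 reached 1 RPKM in some line. The line had 13 P450 genes at 1 RPKM or more (16.5%) against 7 to 11 in the others (8.86% to 13.9%). Of all genes, 53.5% reached 1 RPKM there and 54.3% to 56.1% in the others. The summed P450 level of the line was 334 RPKM against 132 to 224 RPKM.

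*Cyp2s1* (ENSMUSG00000040703, chromosome 7 from 25802475 to 25816913), an enzyme of epithelia such as lung and gut, stood at 2.99, 2.81 and 9.46 RPKM across sg*Trp53* 1 to 3 and at 92.7, 0.988 and 11.9 RPKM across sg*Kmt2c* 1 to 3. The sg*Kmt2c* genotype held both its highest and its lowest line, and sg*Kmt2c* 1 was 7.77 times the next line. *Cyp3a13* (ENSMUSG00000029727, chromosome 5 from 137892932 to 137921619), the Cyp3a gene of mouse intestine and liver that lies away from the other Cyp3a genes, was at 1.05, 0.127 and 0.196 RPKM and at 40.8, 0 and 2.37 RPKM. It had 568 reads in sg*Kmt2c* 1, which was 17.2 times the level of the next line, and 30 or fewer in each other library. *Cyp2c65*, an intestinal arachidonic acid oxidase, had 1, 0 and 2 reads across sg*Trp53* 1 to 3 and 87, 0 and 9 across sg*Kmt2c* 1 to 3, at 9.58 RPKM in sg*Kmt2c* 1 and 1.09 RPKM in sg*Kmt2c* 3. *Cyp2c68* had 59 reads (7.26 RPKM) in sg*Kmt2c* 1 and at most 2 elsewhere. *Cyp21a1*, the adrenal steroid hydroxylase, had 34 reads (3.51 RPKM) there and at most 1 elsewhere, over a stretch of chromosome 17 that RefSeq shares with the pseudogene *Tnxa*. *Cyp2d26* had 8 reads (1.03 RPKM) there and at most 2 elsewhere. For *Cyp2c68*, *Cyp21a1* and *Cyp2d26* the other 2 sg*Kmt2c* lines had 0 reads.

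Of the 15 hepatocyte markers with reads, 8 were highest in sg*Kmt2c* 1 and 4 had 0 reads there, among them *Ahsg*, *Tat* and *Pck1*, and of the 23 regulators with reads 8 were highest and 7 lowest in that line. *Nr1i2*, which encodes the xenobiotic receptor PXR, was at 0.385, 0.221 and 0.284 RPKM across sg*Trp53* 1 to 3 and at 19.2, 0 and 0.183 RPKM across sg*Kmt2c* 1 to 3. *Hnf4a*, a hepatocyte master regulator and one of the markers above, was at 24.7, 3.49 and 15.8 RPKM and at 1186, 0.629 and 170 RPKM. *Nr1i3*, which encodes CAR, the other xenobiotic receptor, did not share this order, at 0.696, 1.06 and 1.23 RPKM and at 0.300, 0.192 and 0.993 RPKM, and *Cebpa*, another hepatocyte regulator, was lowest in sg*Kmt2c* 1, at 4.51 RPKM against 5.12 to 25.3 RPKM. The lines stood in the same order for *Cyp2s1* as for the summed hepatocyte markers (53.4, 35.1 and 81.0 RPKM, then 5689, 6.46 and 345 RPKM), which was also the case for 0.405% of the 11617 genes tested. *Apob*, the largest part of the sum in sg*Kmt2c* 1, took this order by itself. It was at 12.9, 11.8 and 48.8 RPKM across sg*Trp53* 1 to 3 and at 4385, 0.243 and 129 RPKM across sg*Kmt2c* 1 to 3. The order of the sum thus need not be that of the other markers. That order was picked out after the values were known, and the part of hepatocyte character in these levels was not tested.

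**Figure D3:**
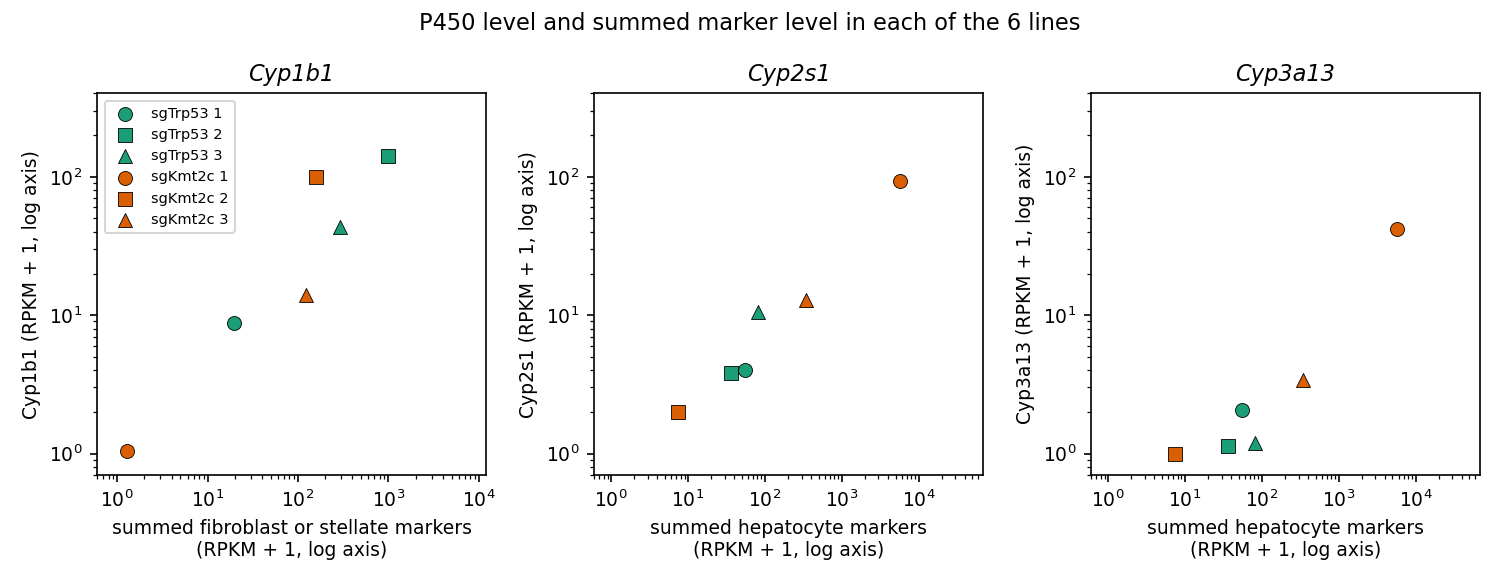
Level of *Cyp1b1*, *Cyp2s1* and *Cyp3a13* (y axes, RPKM + 1, log scale) against the summed level of fibroblast or stellate markers or of hepatocyte markers (x axes, RPKM + 1, log scale), 1 symbol per line with color for genotype and shape for replicate number. *Cyp1b1* is lowest, and *Cyp2s1* and *Cyp3a13* are highest, in sg*Kmt2c* 1, and lines of both genotypes are interspersed.

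The remaining genes of the middle class were low. *Cyp26b1* (ENSMUSG00000063415), which degrades retinoic acid, was at 0.209, 1.56 and 1.67 RPKM across sg*Trp53* 1 to 3 and at 2.89, 0.577 and 2.84 RPKM across sg*Kmt2c* 1 to 3, and the genotypes overlapped. The other 5 genes of the vitamin D and retinoic acid group stayed under 1 RPKM, among them the vitamin D-degrading enzyme *Cyp24a1* and the retinoic acid hydroxylase *Cyp26a1*. *Cyp2d22* (ENSMUSG00000061740), a mouse relative of the human drug-oxidizing gene of the same subfamily, was at 1.30, 1.56 and 0.786 RPKM and at 2.68, 0 and 0.0844 RPKM, with the highest and the lowest line in the same genotype. *Cyp2j6*, an arachidonic acid epoxygenase, had 42 reads (2.19 RPKM) in sg*Trp53* 2 and 11 or fewer elsewhere. *Cyp11a1*, which cleaves the cholesterol side chain in steroid-making cells, was at 3.04 RPKM in sg*Kmt2c* 3, but this was 7 reads over a listed length of 539 bases, and with the longest transcript (1775 bases) it would be at 0.923 RPKM.

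Of the 60 genes under 1 RPKM in all lines, 24 had 0 reads, 29 had 1 to 3 reads in their highest library and 7 had more than 3 in at least 1. The 7 were *Cyp27b1*, *Cyp2a5*, *Cyp2c29*, *Cyp2c44*, *Cyp2d10*, *Cyp2u1* and *Cyp46a1*. *Cyp2u1*, a fatty acid hydroxylase, was the most widely found, with 5, 8 and 2 reads across sg*Trp53* 1 to 3 and 3, 4 and 2 across sg*Kmt2c* 1 to 3. *Cyp46a1*, the cholesterol hydroxylase of neurons, had 1, 4 and 3 reads across sg*Trp53* 1 to 3 and 0 in each sg*Kmt2c* library. *Cyp2c29*, an abundant epoxygenase of mouse liver, came closest to the threshold, at 0.931 RPKM from 7 reads in sg*Kmt2c* 3 and 0 reads elsewhere. On the other side of the threshold, *Cyp2d26* was the lowest gene that passed, at 1.03 RPKM.

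Whether the genotypes differ was tested with limma on log2(RPKM + 1) over the 11617 genes at 1 RPKM or more in at least 3 lines. Of the 79 P450 genes, 11 were tested and 68 were too low. Of the 11, 0 passed an adjusted p of 0.05 (limma, Benjamini-Hochberg over all genes tested), against 15 of all genes (0.129%, 6 higher and 9 lower in the sg*Kmt2c* lines). Also at an unadjusted p of 0.05, 0 of the 11 passed, against 8.58% of all genes. The smallest adjusted p was 0.592. The log2 fold change of sg*Kmt2c* over sg*Trp53* was above 0 for 8 of the 11 and below 0 for 3, with a median of 0.50 against -0.09 over all genes tested. Without sg*Kmt2c* 1 that median was 0.06, against -0.04 over all genes. With sg*Kmt2c* 2 and 3 averaged into a single sample, 0 of the 11 and 0 of all genes passed the adjusted p by limma, with 1 and 1053 at an unadjusted p under 0.05.

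Genotypes without overlap were seen for 2 of the 11 genes and for 16.2% of all genes tested. The mean of *Cyp4f16* was 6.92 ± 1.21 RPKM in the sg*Kmt2c* lines and 4.27 ± 0.844 RPKM in the sg*Trp53* lines (± SD, n = 3 each), with a log2 fold change of 0.59 ± 0.260 (SE) and an adjusted p of 0.592 by limma. That of *Cyp4v3* was 0.498 ± 0.493 RPKM and 1.52 ± 0.196 RPKM, with a log2 fold change of -0.81 ± 0.349 and the same adjusted p. Neither difference passed, and both 95% intervals reached 0, from -0.03 to 1.21 for *Cyp4f16* and from -1.64 to 0.03 for *Cyp4v3*. For *Cyp20a1* the log2 fold change was 0.04, with a 95% interval from -0.44 to 0.52. It was the one gene of the 11 whose interval stayed within 1 log2 unit of 0.

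**Figure D4:**
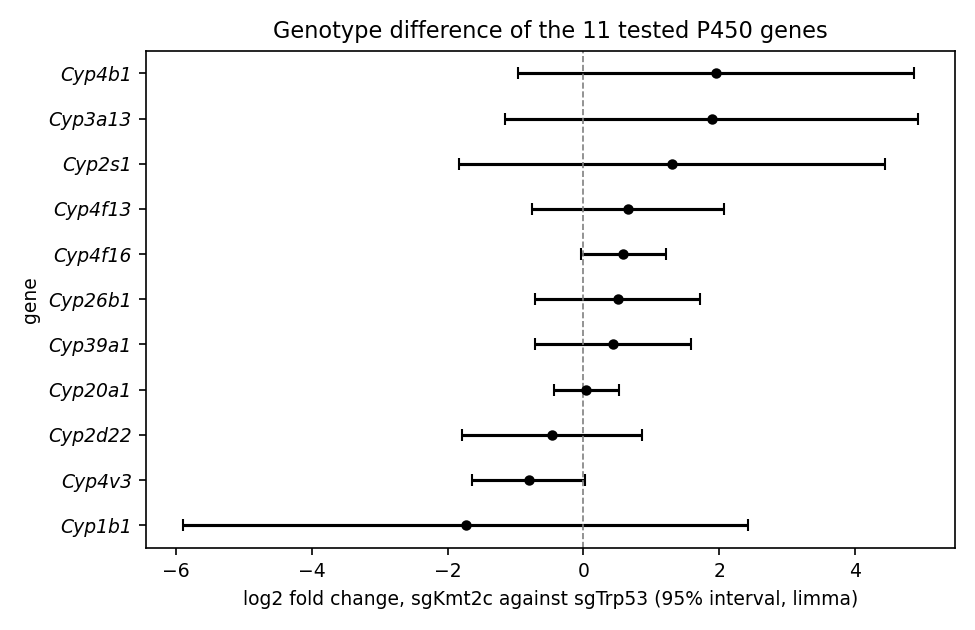
Log2 fold change of sg*Kmt2c* over sg*Trp53* (x axis, points, on the log2(RPKM + 1) scale) with its 95% interval from limma (bars) for the 11 tested P450 genes (y axis). All 11 intervals include 0, and that of *Cyp1b1* runs from -5.89 to 2.42.

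The other 8 estimates were imprecise. Those of *Cyp39a1* (0.44), *Cyp26b1* (0.50), *Cyp4f13* (0.66) and *Cyp2d22* (-0.47) were under 1 log2 unit in size on the log2(RPKM + 1) scale, and 4 were larger. With 0.1 in place of 1 added to the RPKM, these genes under 1 log2 unit were at 0.48, 0.90, 0.73 and -1.78. *Cyp4b1* had a log2 fold change of 1.96 with an interval from -0.97 to 4.88, *Cyp3a13* one of 1.89 from -1.15 to 4.93, *Cyp2s1* one of 1.31 from -1.83 to 4.45 and *Cyp1b1* one of -1.73 from -5.89 to 2.42. Of the 11 intervals, 3 passed 1 log2 unit in both directions, those of *Cyp3a13*, *Cyp2s1* and *Cyp1b1*. The others among these 8 did so in 1 direction, so the lack of a call does not show that the genotypes are alike. The median SD between lines of the same genotype was 0.768 on the log2 scale among the 11, against 0.368 over all genes tested. *Cyp1b1*, *Cyp2s1*, *Cyp3a13* and *Cyp4b1* lay at percentile 98.2 or above. Leaving out sg*Kmt2c* 1 brought *Cyp2s1* to -0.10, *Cyp39a1* to -0.06, *Cyp3a13* to 0.39, *Cyp4f13* to 0.06 and *Cyp1b1* to -0.01, and moved *Cyp2d22* from -0.47 to -1.07. Leaving out sg*Trp53* 2 brought *Cyp4b1* to 0.71 and *Cyp1b1* to -0.78. Other lines moved the estimates away from 0. Without sg*Kmt2c* 2, *Cyp2s1* was at 2.68, *Cyp3a13* at 3.08 and *Cyp1b1* at -3.30, and without sg*Trp53* 1, *Cyp4b1* was at 3.19 and *Cyp1b1* at -2.79, all with an adjusted p of 0.558 or more by limma.

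The partners that P450 enzymes depend on were present in all lines. All 12 listed redox partners and genes of heme turnover were at 1 RPKM or more in every line. *Por*, the common electron donor, was at 105, 60.6 and 106 RPKM across sg*Trp53* 1 to 3 and at 152, 50.2 and 89.2 RPKM across sg*Kmt2c* 1 to 3. *Fdx1* of the mitochondrial chain was at 15.7 to 22.5 RPKM and 19.6 to 23.7 RPKM, and *Fdxr* at 3.58 to 7.33 RPKM and 7.52 to 12.4 RPKM. The genotypes overlapped for *Por* and *Fdx1*, and all sg*Kmt2c* lines were above all sg*Trp53* lines for *Fdxr*. *Cyb5a*, which encodes the auxiliary electron donor cytochrome b5, was highest in sg*Kmt2c* 1, at 167 RPKM against 29.5 to 47.9 RPKM in the other lines, and its reductase *Cyb5r3* was even, at 72.5 to 99.3 RPKM. *Cyp51*, the sterol demethylase of cholesterol synthesis whose symbol lacks the subfamily letter, was at 35.5, 24.5 and 34.4 RPKM and at 94.5, 33.7 and 62.7 RPKM, with a log2 fold change of 0.89 and an adjusted p of 0.592 by limma.

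Of 24 receptors and other regulators, 14 were tested and 12 were at 1 RPKM or more in all lines, while *Nr1i2*, *Nr1i3*, *Ppara* and *Nr0b2* were among the 10 too low for the test. Over all 39 partners, 27 were tested and 0 passed an adjusted p of 0.05 by limma, while 3 passed unadjusted, where 8.58% of all genes did so. In 5 of the 27 the genotypes did not overlap, against 16.2% of all genes, so neither count stands out from the background. The 3 were *Nr1h3*, the oxysterol receptor LXRα, and *Arnt* and *Pgrmc2*. *Nr1h3* was at 2.48, 1.42 and 1.32 RPKM across sg*Trp53* 1 to 3 and at 32.6, 8.06 and 3.30 RPKM across sg*Kmt2c* 1 to 3, with no overlap and an adjusted p of 0.528 by limma. *Arnt*, the dimer partner of Ahr, was at 35.0, 79.6 and 42.2 RPKM across sg*Trp53* 1 to 3 and at 23.9, 26.6 and 27.0 RPKM across sg*Kmt2c* 1 to 3, with no overlap and an adjusted p of 0.528 by limma. *Pgrmc2*, a heme-binding partner protein, was at 36.4, 41.3 and 37.1 RPKM and at 19.1, 20.4 and 34.1 RPKM, with an adjusted p of 0.567 by limma.

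Promoter sequence, a feature that the choice of genes did not use, was set beside these classes. Among the 9 genes at 1 RPKM or more in 3 or more lines and with a RefSeq promoter, the 300-base window held a median of 9 CpG dinucleotides, against 4 in the 7 genes that reached this level in 1 or 2 lines and 2 in the 46 below it, where genes with several starts count by the start with most CpG. At least 10 CpG were found in 4 of 9, 1 of 7 and 3 of 46. All 3 CpG-rich genes of the low class, *Cyp26a1*, *Cyp2r1* and *Cyp46a1*, belong to roles other than drug oxidation. P450 promoters as a whole were poor in CpG, since 12.9% of the 62 had 10 or more. The share was 73.5% of the 13295 genes of the table with a RefSeq promoter. It was 40.5% of the 3749 genes with a RefSeq promoter that stayed under 1 RPKM in all lines. These shares are a description with no test, because neighbouring P450 genes share their ancestry and sequence.

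*Cyp20a1* and *Cyp3a13* are shown as the 2 ends of this range among the genes at 1 RPKM or more in 3 or more lines. Their windows, with the same build and bounds as above, lie at chr1:60343050-60343349 (plus strand) and chr5:137921570-137921869 (minus strand), and capitals mark each CpG.
Cyp20a1: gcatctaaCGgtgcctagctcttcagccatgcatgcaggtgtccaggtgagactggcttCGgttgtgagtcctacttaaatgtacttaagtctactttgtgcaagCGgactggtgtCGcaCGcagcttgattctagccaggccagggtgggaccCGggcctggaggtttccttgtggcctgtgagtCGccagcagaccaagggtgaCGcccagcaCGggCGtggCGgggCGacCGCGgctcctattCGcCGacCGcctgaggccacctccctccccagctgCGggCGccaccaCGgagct
Cyp3a13: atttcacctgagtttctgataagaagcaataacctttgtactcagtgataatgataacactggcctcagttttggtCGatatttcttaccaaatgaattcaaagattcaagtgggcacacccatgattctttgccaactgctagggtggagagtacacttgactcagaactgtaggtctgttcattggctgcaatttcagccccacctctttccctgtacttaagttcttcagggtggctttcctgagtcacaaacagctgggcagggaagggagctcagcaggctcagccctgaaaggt

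The window of *Cyp20a1*, the gene of even level in all 6 lines, held 20 CpG. That of *Cyp3a13*, with 568 reads in sg*Kmt2c* 1 and 0 in sg*Kmt2c* 2, held 1. An uneven level did not always go with a CpG-poor window, since *Cyp1b1* held 16 CpG and *Cyp2s1* held 17.

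**Figure D5:**
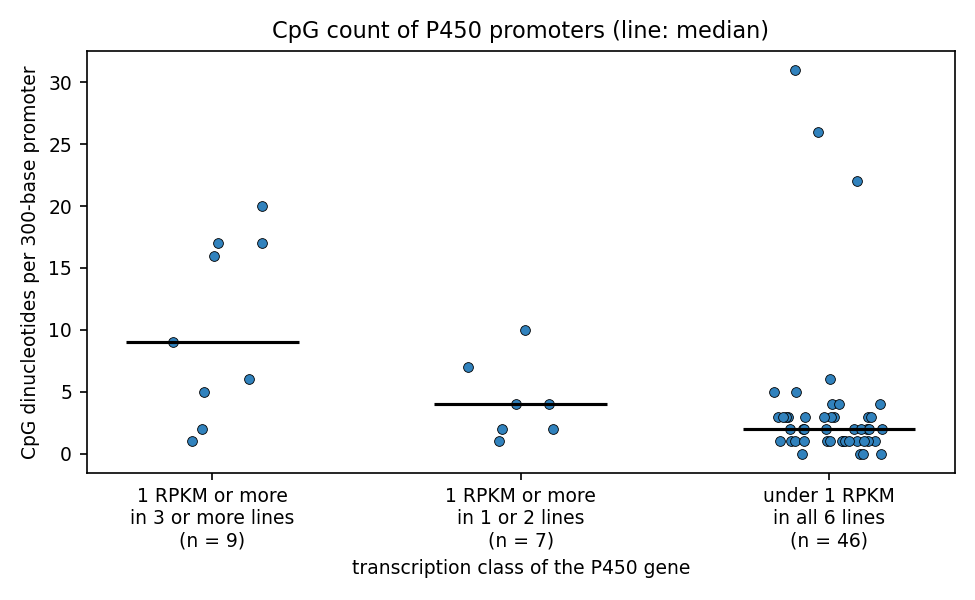
CpG dinucleotides in the 300-base promoter window (y axis) of the 62 P450 genes with a RefSeq promoter, 1 point per gene, by the number of lines at 1 RPKM or more (x axis), with the median as a line. The medians are 9, 4 and 2, and 3 genes of the low class lie at 22 to 31 CpG.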

How the data were processed

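RNA from 6 cell lines (3 *Myc*; sg*Trp53* and 3 *Myc*; sg*Kmt2c*, described as from different mice) was sequenced. The authors used Trimmomatic for trimming, STAR for alignment to GRCm38 and HTSeq for counting, and deposited RPKM values, computed with 1 transcript length per gene. Use of strand and treatment of multiply mapped reads are not given in the sources used here. The table has 21065 rows, of which 209 lack values, and 6 other sample columns, which were not used. The deposited DESeq2 (1.8.2) table holds the authors' own comparison (mean normalized count, fold change, error, statistic and p-values) and was not used.

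RPKM multiplied by length gave whole reads for 100% of values above 0 (within 0.01 read), and reads are quoted from this. No pair of replicates was a copy, since their counts differed by a chi-square of at least 26.5 per gene, where sampling noise gives about 1. Genes at 1 RPKM or more in at least 3 libraries were tested with limma 3.58.1 in R 4.3.3 (eBayes with trend) on log2(RPKM + 1), with a term for genotype and Benjamini-Hochberg adjustment across the 11617 genes. This scale understates changes of low genes. The script was tested on simulated data. With 3 lines against 3, an exact permutation test cannot go below a two-sided p of 0.1, so none was used. P450 genes at 1 RPKM or more in at least 3 lines were named with all values and those in 1 or 2 lines with those values. Those with more than 3 reads in a library were named as a group, as were partner genes past the threshold and 11 fixed ones, and Cyp2e1, Cyp3a11, Cyp1a2, the bile acid genes, the regulators Tiparp, Ahrr, Nr1h3, Pgrmc2 and Cebpa, and the single low genes given with their reads were added after their values were seen. The P450 genes, partners and marker lists were chosen with earlier results of these data known. Of 79 genes, 76 had a GENCODE vM1 transcript length, and for 4 the longest transcript exceeded the listed length by more than 2 times. Promoters (GRCm38.p6) are from RefSeq, and coordinates were matched by symbol or identifier. The closing section gives the alternatives tried.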

Additional observations from a re-analysis of the deposited data

How the results depend on the processing

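The count of P450 genes past an adjusted p of 0.05 by limma was 0 under all 18 alternatives, which changed the pseudocount, filter, scaling, trend, threshold, block or samples, or used voom on recovered reads, with 0 to 3 genes at an unadjusted p under 0.05. Over all genes, where 15 passed, the 16 alternatives that refit the data at this threshold called 0 to 20, with 0 when sg*Kmt2c* 2 and 3 were averaged, and the other 2, which change the threshold, gave 33 (adjusted p under 0.1) and 997 (unadjusted). The labels number the replicates of both genotypes 1 to 3, but same-numbered lines did not all deviate together (correlations of 0.19, 0.40 and 0.03), so the numbers were not taken as pairs, and with the replicate block 0 P450 genes and 0 of all genes passed. Of 255 values of 16 single genes under the alternatives, 250 kept direction and side of the threshold and 5 turned, all on leaving out a line. *Cyp20a1* ranged from -0.059 to 0.18 (-0.059 without sg*Kmt2c* 2, -0.03 without sg*Trp53* 1 and -0.02 without sg*Trp53* 2), *Cyp2s1* from -0.10 to 2.68 and *Cyp39a1* from -0.061 to 0.71, both lowest without sg*Kmt2c* 1. The size of *Cyp2d22* and *Cyp4v3* depended on the scale, from -2.11 to -0.11 and from -2.53 to -0.54, both lowest with voom. The number of P450 genes at 1 RPKM or more in every line was 4 or 5 with a line left out, 4 at a minimum of 2 RPKM or with the longest transcript lengths (an alternative chosen after seeing the data), 5 at 0.5 RPKM or with TPM scaling (*Cyp2s1* was added at 0.5 RPKM), and 6 with more than 3 reads in every library, which added *Cyp2s1* and *Cyp26b1*. The mean summed P450 level was 170 ± 48.2 RPKM in the sg*Trp53* lines (± SD, n = 3). In the sg*Kmt2c* lines it was 228 ± 101 RPKM. With a line left out, the sg*Trp53* mean ran from 142 to 188 RPKM and the sg*Kmt2c* mean from 174 to 275 RPKM. The sg*Kmt2c* mean of 174 RPKM was the one without sg*Kmt2c* 1. On the TPM scale, which sets every library to the same total, the means were 315 and 414. Shallow libraries limit the low genes, since 1 to 3 reads cannot be told from 0, and 3 lines a genotype limit the test.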
